A study of Saccharomyces cerevisiae with 68 samples.

Results

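YDR261C-D and YBL100W-A are open reading frames of Ty elements, the long terminal repeat retrotransposons of Saccharomyces cerevisiae, and their signal was followed through a set of SAGA deletion strains. They are 2 of the 5449 S. cerevisiae genes with a probe set on the arrays, and 2 of the 13 Ty reading frames among those genes. Both were picked by name because their total RNA signal was low in the strain without SPT8 relative to the wild type, so every comparison of total RNA with the wild type is given below as a description without a test. Nascent RNA did not enter that choice and was tested. Nascent and total RNA are, however, 2 fractions of the labelled cultures. Nascent tests with spt8Δ or WT on 1 side are therefore not independent of the choice. Each frame had 1 probe set, and both probe sets carry the array maker's suffix for probes that match more than 1 transcript. So do 190 of all 10928 probe sets on the arrays. Each signal thus belongs to a group of near-identical copies and not to 1 element.

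In RefSeq's gene table YBL100W-A lies on chromosome II and is 1317 bases long, and YDR261C-D lies on chromosome IV and is 4816 bases long. A Ty element carries a first frame for Gag, the protein that forms the virus-like particle, and a longer Gag-Pol frame that is read through a frameshift and adds protease, integrase and reverse transcriptase. YBL100W-A is the Gag frame of a Ty2 element, and YDR261C-D is the Gag-Pol frame of a Ty1 element. The SPT genes take their name from suppressors of Ty insertions, and SAGA, the coactivator that holds several of their products, is known to be needed for transcription from Ty long terminal repeats. Spt3 and Spt8 act on TATA-binding protein, Gcn5 is the histone acetyltransferase, Ubp8 the histone H2B deubiquitinase, and Spt20 and Spt7 hold the complex together.

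The deletion strains were spt20Δ, spt7Δ, spt3Δ, spt8Δ, gcn5Δ and ubp8Δ, with the double deletions ubp8Δ gcn5Δ and spt3Δ gcn5Δ, and the control was the wild type (WT). All came from the parental strain FY406. Cultures in YPD at 30 °C were taken near OD600 0.8 and labelled for 6 min with 5 mM 4-thiouracil, a base that enters RNA made during the pulse. Labelled cells of Schizosaccharomyces pombe were mixed in at 1 part to 3 parts of S. cerevisiae, and both the purified labelled RNA (nascent) and the unfractionated RNA (total) were hybridised to expression arrays. The nascent arrays used were 4 each of spt20Δ, gcn5Δ, ubp8Δ and ubp8Δ gcn5Δ, 2 each of spt3Δ, spt8Δ and spt3Δ gcn5Δ, and 6 of WT (replicates 3 to 8). The total arrays used were 4 each of spt7Δ, gcn5Δ, ubp8Δ and ubp8Δ gcn5Δ, 2 each of spt20Δ, spt3Δ, spt8Δ and spt3Δ gcn5Δ, and the same 6 of WT. The labels state 2 independent biological replicates per deletion strain, so in a group of 4 arrays some may be technical repeats and p-values then measure the spread between arrays.

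Values are log2 signals centred on the median S. cerevisiae gene of each array, here called relative log2 signal, so 0 is the median gene of that array and 1 is 2-fold above it. A change in the amount of all RNA per cell is not visible on this scale, and in cultures a lower signal in every cell cannot be told apart from a lost signal in some cells. Of 68 arrays, 10 were left out. WT total replicate 1 equalled the mean of replicates 3 and 4 at all 5498 S. cerevisiae probe sets, within a relative tolerance of 1e-06. Replicate 2 likewise equalled that of 5 and 6, and both fractions of these 2 were dropped. In spt20Δ total replicates 1 and 3 the deleted SPT20 stood at -0.10 and 0.03, against -6.32 and -7.16 in replicates 2 and 4. The 4 spt7Δ nascent arrays correlated at 0.0182 to 0.0207 with their own total arrays, where other arrays reached 0.911 to 0.994 (Spearman's rho over genes). The deleted gene was below every WT array in 19 of 19 checks of the remaining arrays.

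The WT arrays did not form 1 group. By the profile of the S. pombe probe sets the arrays of each fraction fell into a set of 30 and a set of 4, counting those left out here, and the 4 were WT replicates 7 and 8 and both spt3Δ gcn5Δ arrays. The mean rank correlation was 0.963 within and 0.669 between these sets in nascent RNA, and 0.983 and 0.851 in total RNA. The labels name no batch. In nascent RNA, YDR261C-D was lower by 2.93 on the log2 scale in WT 7 and 8 than in WT 3 to 6, a distance that 1.67% of genes reached, while YBL100W-A differed by -0.17. In total RNA it was YBL100W-A that differed, by 2.02 in the opposite direction (2.22% of genes as far), and YDR261C-D by -0.14. Each test was therefore run over all 6 WT arrays and again with the array set as a block.

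Among nascent RNAs, YDR261C-D stood near or above the array median in WT 3 to 6 and below it in most SAGA strains. The 4 spt20Δ arrays read -1.50, -1.88, -2.01 and -1.22, and the 4 gcn5Δ arrays -1.65, -2.24, -0.97 and -1.54. Those of WT 3 to 6 read 0.96, 0.11, 1.51 and -0.19, and WT 7 and 8 read -2.03 and -2.63. Every spt20Δ and gcn5Δ array was thus below each WT array of its own set, as were 15.9% and 14.0% of all genes in these strains, and above 1 or both WT arrays of the smaller set.

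The spt8Δ arrays gave -1.25 and -1.46, within the ranges of the spt20Δ and gcn5Δ arrays. Of the spt3Δ arrays, at -0.26 and -1.62, the lower was within those ranges too. The higher lay just under the lowest of WT 3 to 6. The 4 ubp8Δ gcn5Δ arrays gave -0.82, -1.05, -0.48 and -0.77. The 4 ubp8Δ arrays, at 0.26, -0.17, 0.20 and 0.40, overlapped WT 3 to 6. The lowest values of the series were those of spt3Δ gcn5Δ, at -2.92 and -2.67, both just below WT 8.

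**Figure D1:**
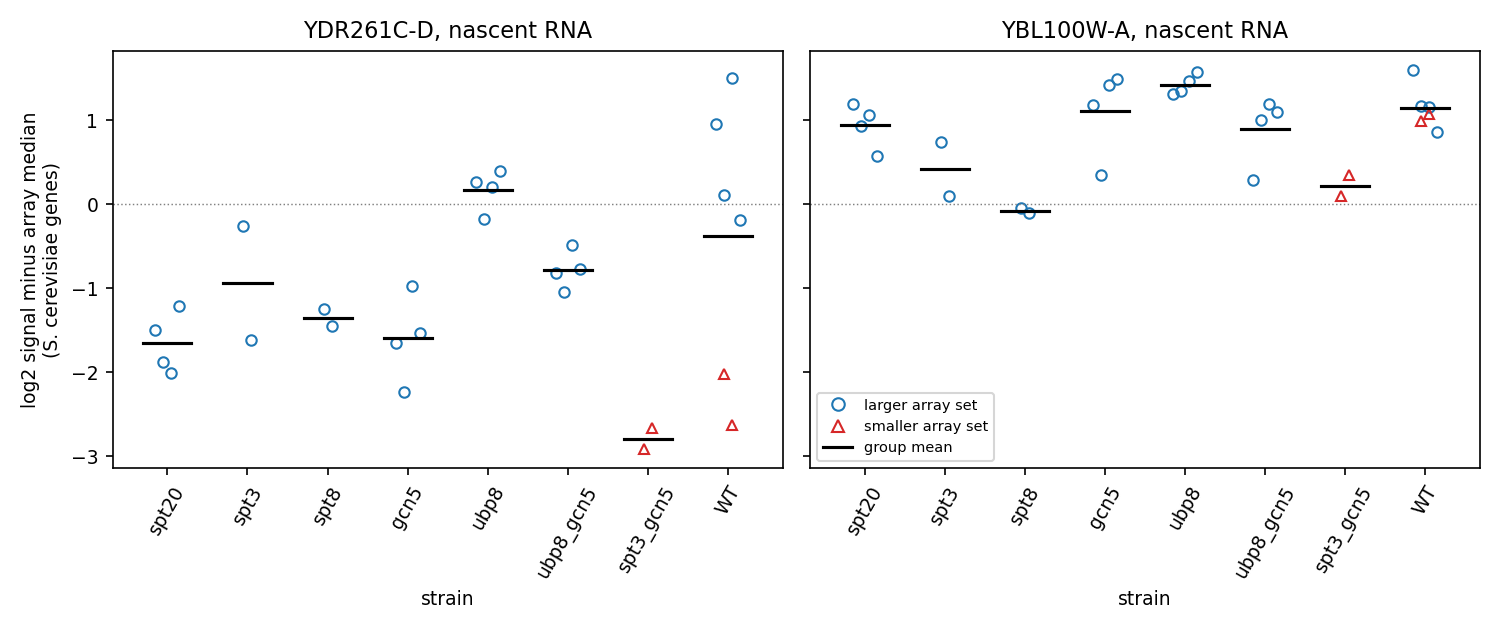
Relative log2 signal of YDR261C-D (left) and YBL100W-A (right) in each nascent array, by strain, with circles for the 30-array set, triangles for the 4-array set and bars for group means. YDR261C-D splits WT into arrays at -0.19 to 1.51 and at -2.63 to -2.03, whereas the WT arrays of YBL100W-A lie together between 0.86 and 1.60 and both spt8Δ arrays lie below 0.

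With the array set as a block, nascent YDR261C-D fell in 5 of 7 strains. The change was -2.25 ± 0.32 in spt20Δ (SE; limma, adjusted p = 5.92e-06, n = 4) and -2.19 ± 0.32 in gcn5Δ (limma, adjusted p = 1.87e-05, n = 4), which against WT 3 to 6 are 4.74-fold and 4.58-fold lower. It was -1.95 ± 0.39 in spt8Δ (limma, adjusted p = 0.000995, n = 2) and -1.54 ± 0.39 in spt3Δ (limma, adjusted p = 0.00532, n = 2). In ubp8Δ gcn5Δ it was -1.38 ± 0.32 (limma, adjusted p = 0.000962, n = 4). The same model called 21.6% of all genes lower in spt20Δ, 18.5% in gcn5Δ, 29.2% in spt8Δ, 21.5% in spt3Δ and 33.6% in ubp8Δ gcn5Δ, so a call alone was common. The sizes were less common, since the 5th percentile of all genes lay at -0.80, -0.69, -1.25, -1.13 and -0.91 in those strains in the same order.

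Without the block none of these 5 calls was made. Over all 6 WT arrays the change was -1.27 ± 0.54 in spt20Δ (limma, adjusted p = 0.0589) and -1.22 ± 0.54 in gcn5Δ (limma, adjusted p = 0.114). In spt8Δ it was -0.97 (limma, adjusted p = 0.379), in spt3Δ -0.56 (limma, adjusted p = 0.667) and in ubp8Δ gcn5Δ -0.40 (limma, adjusted p = 0.575). Leaving out WT 7 alone gave -1.60 in spt20Δ (limma, adjusted p = 0.0155) and -1.55 in gcn5Δ (adjusted p = 0.0353), and leaving out WT 8 alone gave -1.72 (adjusted p = 0.00397) and -1.67 (adjusted p = 0.0109). The spt3Δ value rests on its replicate 2, without which it was 0.12 over all WT arrays.

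In the remaining 2 strains the block ended a call or turned the sign. In spt3Δ gcn5Δ, YDR261C-D was -2.41 ± 0.68 over all WT arrays (limma, adjusted p = 0.00733, with 21.8% of genes called lower). Within its own array set it was -0.46 ± 0.45 (limma, adjusted p = 0.466), although both arrays lay below WT 7 and 8. In ubp8Δ it was 0.55 ± 0.54 over all WT arrays and -0.42 ± 0.32 with the block, and neither passed (limma, adjusted p = 0.461 and 0.443).

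Nascent YBL100W-A was lowest in spt8Δ, spt3Δ and spt3Δ gcn5Δ, and the WT arrays of both sets read alike for it. Its 2 spt8Δ arrays read -0.04 and -0.11 and its 2 spt3Δ arrays 0.74 and 0.09. Both spt3Δ gcn5Δ arrays were low as well, at 0.09 and 0.34. The 6 WT arrays ran between 0.86 and 1.60 with a median of 1.12, so all arrays of these 3 strains lay below every WT array, as did 15.7%, 11.1% and 18.7% of tested genes in spt8Δ, spt3Δ and spt3Δ gcn5Δ.

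The other strains overlapped WT. YBL100W-A gave 1.19, 0.93, 1.06 and 0.57 in spt20Δ and 1.18, 0.35, 1.42 and 1.49 in gcn5Δ. It gave 1.31, 1.34, 1.47 and 1.57 in ubp8Δ, and 0.29, 1.01, 1.19 and 1.10 in ubp8Δ gcn5Δ. In spt20Δ, gcn5Δ and ubp8Δ gcn5Δ 1 array each was below every WT array, and in ubp8Δ none was.

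In spt8Δ, nascent YBL100W-A fell by 1.22 ± 0.26 (SE; limma, adjusted p = 0.00487, n = 2 against 6), a 2.33-fold lower signal, and with the array set as a block the change was -1.27 (limma, adjusted p = 0.000892). Of tested genes, 9.4% were called lower in spt8Δ over all WT arrays and 31.1% with the block, and the 5th percentiles of change were -0.72 and -0.95. In spt3Δ gcn5Δ the change was -0.92 ± 0.26 (limma, adjusted p = 0.00584, with 24.6% of genes called lower), and -0.81 with the block (adjusted p = 0.0387, 15.5% called lower). In spt3Δ it was -0.73 ± 0.26 and missed the threshold (limma, adjusted p = 0.0609, 8.71% called lower), and it passed with the block at -0.78 (adjusted p = 0.0229, 23.2% called lower). With 2 arrays a strain these calls were fragile. Over all WT arrays, leaving out spt8Δ replicate 1 or 2 gave -1.25 or -1.19 with limma adjusted p of 0.0905 or 0.11, and leaving out spt3Δ gcn5Δ replicate 1 gave -0.80 with 0.091. Leaving out WT 6 brought spt3Δ to -0.78 and past the threshold (adjusted p = 0.0432).

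In the other 4 strains YBL100W-A did not pass under either model. Over all WT arrays the change was -0.20 ± 0.20 in spt20Δ (limma, adjusted p = 0.428), -0.03 ± 0.20 in gcn5Δ (adjusted p = 0.935), 0.28 ± 0.20 in ubp8Δ (adjusted p = 0.313) and -0.24 ± 0.20 in ubp8Δ gcn5Δ (adjusted p = 0.353). In spt20Δ and gcn5Δ the 2 frames therefore read differently, with YDR261C-D below all WT arrays of the same set in 8 of 8 arrays and YBL100W-A in 2 of 8. That difference between the frames was not tested.

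**Figure D2:**
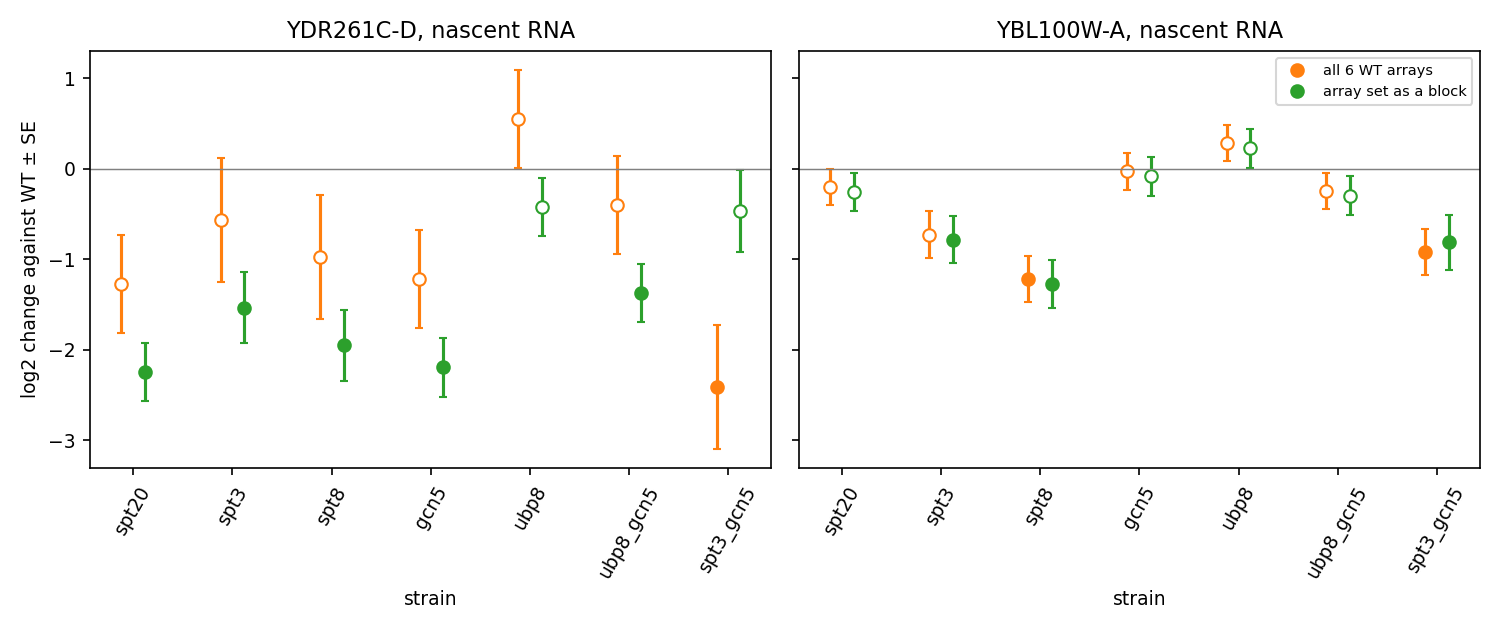
Log2 change against WT with its SE in nascent RNA for YDR261C-D (left) and YBL100W-A (right), over all 6 WT arrays and with the array set as a block; filled points passed a limma adjusted p under 0.05. The models give close values for YBL100W-A, and for YDR261C-D they differ by about 1 in the strains of the larger set and by more in spt3Δ gcn5Δ.

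The ubp8Δ gcn5Δ nascent arrays carried a feature of the deposit that touches both frames. Multiplied by 1 of 2 constants, one for 2868 and the other for 2629 probe sets, their S. cerevisiae values became numbers of 7 significant digits on all 4 arrays, within 0.02 of the last digit, so the values read as divided by them. The ratio of the constants is 0.43 on the log2 scale. YBL100W-A had the larger divisor and YDR261C-D the smaller. Multiplying the constants back moved YBL100W-A to 0.02 over all WT arrays and -0.03 with the block. It moved YDR261C-D to -0.57 over all WT arrays and to -1.54 with the block (limma, adjusted p = 0.000528, 21.7% of all genes lower). The combination with the block was added after the data were seen, and the sources used here do not say why the constants were applied. Elsewhere the nascent values and counts of ubp8Δ gcn5Δ still hold the constants unless said otherwise. With them multiplied back, 719 of 4086 tested genes were called lower in that strain over all WT arrays, against 1222 before. With the block these numbers were 1149 and 1836.

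Strains were also set against each other in nascent RNA, which needs no WT array within the larger set. Of the 21 pairs, YBL100W-A separated spt8Δ from 4 others. It was lower in spt8Δ by 1.5 ± 0.27 than in ubp8Δ (limma, adjusted p = 0.00113, 15.1% of genes lower) and by 1.19 ± 0.27 than in gcn5Δ (adjusted p = 0.00406, 10.5% lower). It was higher in spt20Δ than in spt8Δ by 1.02 ± 0.27 (adjusted p = 0.00511, 22.1% higher) and higher in ubp8Δ gcn5Δ than in spt8Δ by 0.97 ± 0.27 (adjusted p = 0.0101, 9.74% higher). The spt3Δ strain was lower than ubp8Δ by 1.01 ± 0.27 (adjusted p = 0.0137, 9.91% lower). It did not separate from spt8Δ, with a difference of 0.49 ± 0.31 (adjusted p = 0.925). On arrays scaled to the S. pombe spike-in, the differences of spt20Δ and of ubp8Δ gcn5Δ from spt8Δ turned to -0.21 and -0.76.

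For YDR261C-D the contrast ran between ubp8Δ and the rest. It was lower in spt20Δ than in ubp8Δ by 1.82 ± 0.59 (limma, adjusted p = 0.0309, 11.5% of all genes lower), the 1 pair within the larger set that passed under both models. With the block, whose residual spread no longer holds the distance between WT arrays, the same size had an SE of 0.32 (adjusted p = 0.000116, 18.6% lower). The strains that were then lower than ubp8Δ and had not passed before were gcn5Δ at -1.77 ± 0.32 (adjusted p = 0.000342, 13.2% lower), spt8Δ at -1.53 ± 0.39 (adjusted p = 0.0035, 36.0% lower), spt3Δ at -1.11 ± 0.39 (adjusted p = 0.0284, 26.8% lower) and ubp8Δ gcn5Δ at -0.95 ± 0.32 (adjusted p = 0.017, 32.6% lower). Between spt20Δ, gcn5Δ, spt8Δ and spt3Δ no pair passed, with differences from -0.71 to 0.66.

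Ordered by mean nascent level within the larger set, YDR261C-D was lowest in spt20Δ at -1.65 ± 0.36 (SD), followed by gcn5Δ at -1.60 ± 0.52, spt8Δ at -1.35 ± 0.14, spt3Δ at -0.94 ± 0.96, ubp8Δ gcn5Δ at -0.78 ± 0.23, ubp8Δ at 0.17 ± 0.25 and WT 3 to 6 at 0.60 ± 0.78. The 1 step between neighbouring strains that passed, with the block alone, was that between ubp8Δ and ubp8Δ gcn5Δ, where the double deletion was lower. YBL100W-A was lowest in spt8Δ at -0.08 ± 0.05, followed by spt3Δ gcn5Δ at 0.22 ± 0.18, spt3Δ at 0.41 ± 0.45, ubp8Δ gcn5Δ at 0.90 ± 0.41, spt20Δ at 0.94 ± 0.27, gcn5Δ at 1.11 ± 0.52 and ubp8Δ at 1.42 ± 0.12, against 1.14 ± 0.25 in WT. None of its steps between neighbouring strains passed under either model.

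The double deletions were set against single deletions as well. With the block, YDR261C-D was higher in ubp8Δ gcn5Δ than in spt20Δ by 0.87 ± 0.32 (limma, adjusted p = 0.0269, 21.7% of genes higher), and by 0.70 once the constants were multiplied back (adjusted p = 0.0848). It was higher there than in gcn5Δ by 0.82 ± 0.32 (adjusted p = 0.0452, 17.2% higher), and by 0.65 once the constants were multiplied back (adjusted p = 0.188). YBL100W-A in ubp8Δ gcn5Δ was lower than in ubp8Δ by 0.53 ± 0.21 with the block (adjusted p = 0.0388, 43.9% lower), and the difference was -0.26 after the constants were multiplied back (adjusted p = 0.369). In spt3Δ gcn5Δ, YBL100W-A differed from spt3Δ by -0.20 ± 0.31 (adjusted p = 0.639). The spt3Δ gcn5Δ arrays share a set with WT 7 and 8 alone, so strain and array set cannot be told apart in their comparison with other mutants.

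In total RNA, all arrays of 7 of the 8 strains read lower for YDR261C-D than the lowest WT array. The spt8Δ arrays, whose low signal chose the frames, read -1.33 and -0.39. The 6 WT arrays ran between 0.10 and 0.95 with a median of 0.51, and the 2 array sets overlapped. The mean difference between spt8Δ and WT was -1.40, a 2.64-fold lower signal.

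Other strains went further than spt8Δ. The spt3Δ arrays read -1.87 and -1.27, a difference of -2.11 from WT, and the spt20Δ arrays (replicates 2 and 4) read -1.64 and -1.13, a difference of -1.92. The 4 gcn5Δ arrays, at -0.74, -1.75, -1.42 and -0.04, spread widely around a difference of -1.53. The spt3Δ gcn5Δ arrays read -2.43 and -2.69, 8.05-fold below WT 7 and 8 of the same set.

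Nearer to WT were 3 strains. YDR261C-D read -0.47, -0.08, -0.99 and -0.69 in ubp8Δ gcn5Δ, and -0.15, -0.18, -0.47 and -0.42 in spt7Δ. In ubp8Δ it read 0.51, -0.49, 0.18 and -0.40, with 2 of 4 arrays inside the WT range. Of genes tested in total RNA, 7.32% had both spt8Δ arrays below every WT array, and the share was 13.4% in spt3Δ, 27.4% in spt20Δ, 18.4% in spt7Δ, 10.3% in gcn5Δ, 16.6% in ubp8Δ gcn5Δ and 22.8% in spt3Δ gcn5Δ. All these differences share the WT arrays that entered the choice of the frames, and nothing is read from the shares.

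Total YBL100W-A read -0.09 and 0.14 in spt8Δ. The WT arrays were split, at 0.67, 0.57, 0.65 and 0.51 in replicates 3 to 6 and at 2.76 and 2.47 in replicates 7 and 8. Both spt8Δ arrays were below all WT arrays, with a mean difference of -1.25 from all 6 and of -0.57 from WT 3 to 6. The lowest values were -0.81 and -0.32 in spt20Δ, followed by -0.18 and -0.30 in spt3Δ. Both strains were clear of WT 3 to 6, by -1.16 in spt20Δ and -0.84 in spt3Δ.

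The remaining strains lay nearer to WT 3 to 6 in total YBL100W-A. The values were 0.61, 0.46, 0.41 and 0.86 in gcn5Δ, 0.62, 0.51, 0.54 and 0.27 in ubp8Δ, 0.53, 0.50, 0.23 and 0.45 in ubp8Δ gcn5Δ, and 0.27, 0.60, 0.12 and 0.22 in spt7Δ. Differences of these 4 strains from WT 3 to 6 ran from -0.30 to -0.01. Below every WT array were 3 of 4 arrays in spt7Δ, 3 in ubp8Δ gcn5Δ, 2 in gcn5Δ and 1 in ubp8Δ. The spt3Δ gcn5Δ arrays read 0.18 and 0.37, within the range of the other mutants and 5.06-fold below WT 7 and 8.

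**Figure D3:**
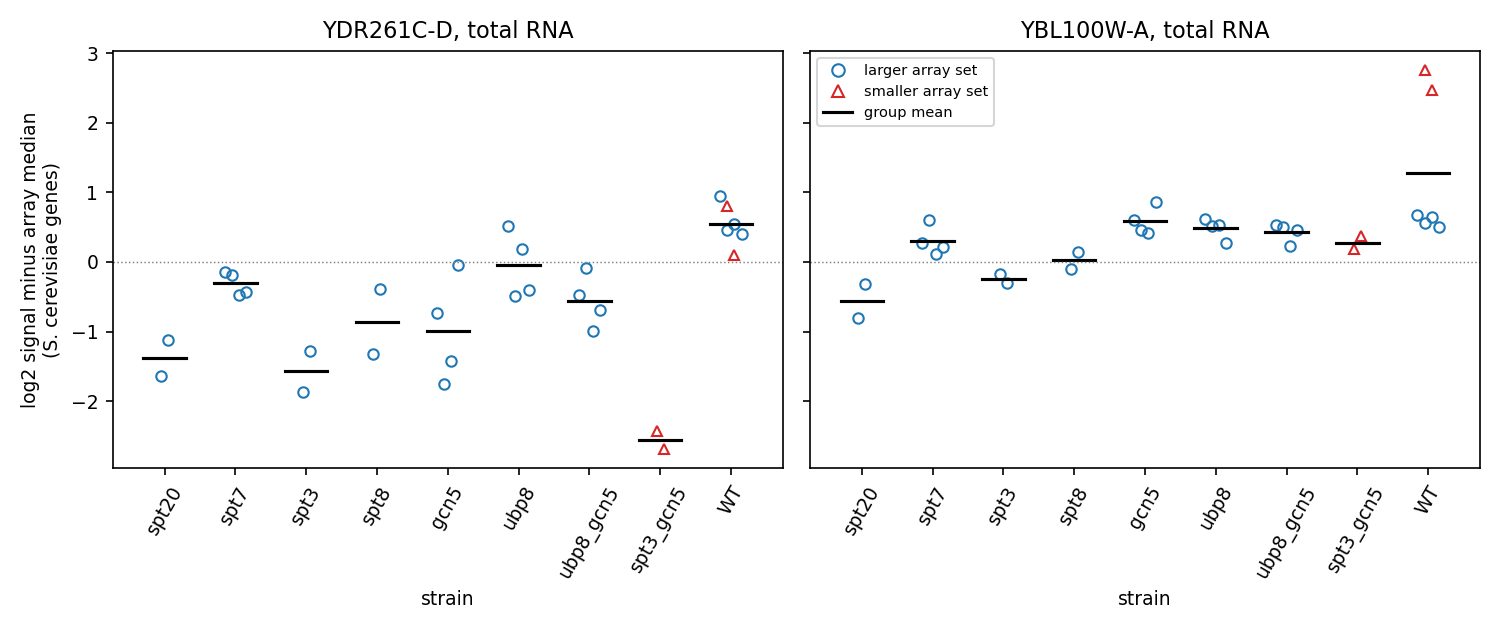
Relative log2 signal of YDR261C-D (left) and YBL100W-A (right) in each total RNA array, by strain, with circles for the 30-array set, triangles for the 4-array set and bars for group means. WT 7 and 8 stand apart for YBL100W-A at 2.47 and 2.76, and for YDR261C-D the arrays of 7 strains lie below all WT arrays, which span 0.10 to 0.95.

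Pairs of strains other than spt8Δ were tested in total RNA. YDR261C-D was lower in spt3Δ than in ubp8Δ by 1.52 ± 0.36 (limma, adjusted p = 0.00465, 7.17% of genes lower), in spt20Δ by 1.33 ± 0.36 (adjusted p = 0.0065, 19.1% lower) and in gcn5Δ by 0.94 ± 0.30 (adjusted p = 0.0334, 7.68% lower). It was higher in spt7Δ than in spt3Δ by 1.26 ± 0.36 (adjusted p = 0.00974, 9.99% higher) and higher in ubp8Δ gcn5Δ than in spt3Δ by 1.01 ± 0.36 (adjusted p = 0.033, 11.9% higher). All 5 passed with the array set as a block too. In spt20Δ it was 1.07 lower than in spt7Δ, which passed with the block alone (adjusted p = 0.0189 against 0.0651, 16.3% lower), as did the difference of 0.68 between spt7Δ and gcn5Δ (adjusted p = 0.0385 against 0.0717, 24.4% higher).

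For total YBL100W-A the SE of these pairs depended on WT 7 and 8, since all groups share 1 estimate of the spread. It was lower in spt20Δ than in gcn5Δ by 1.15, with an SE of 0.44 over all arrays (limma, adjusted p = 0.0479, 18.7% of genes lower) and 0.14 with the block (adjusted p = 1.45e-07, 35.2% lower). With the block it was also lower in spt20Δ than in ubp8Δ by 1.05 (adjusted p = 6.24e-07, 34.3% lower) and than in spt7Δ by 0.86 (adjusted p = 3.93e-05). It was lower in spt3Δ than in gcn5Δ by 0.82 (adjusted p = 3.01e-05, 20.1% lower) and than in ubp8Δ by 0.73 (adjusted p = 0.000195, 15.7% lower). None of these 4 passed without the block (adjusted p = 0.0701, 0.25, 0.191 and 0.286). In both fractions, then, spt3Δ was below ubp8Δ for YBL100W-A. The spt20Δ strain separated from gcn5Δ in total RNA and not in nascent RNA, where the difference was -0.17 ± 0.22 (adjusted p = 0.608). The difference between fractions was not tested.

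Set side by side, the 2 fractions placed spt20Δ apart for YBL100W-A. Its mean nascent level exceeded its mean total level by 1.5 in spt20Δ, against 0.60 in WT 3 to 6. The same excess was 0.94 in ubp8Δ, 0.65 in spt3Δ, 0.53 in gcn5Δ and 0.47 in ubp8Δ gcn5Δ. It was -0.10 in spt8Δ and -0.06 in spt3Δ gcn5Δ, and -1.59 in WT 7 and 8. Each fraction has its own median, so these differences are read across strains only, and they were not tested. The spt20Δ means rest on 4 nascent and 2 total arrays. In spt20Δ the other Gag frames also had a larger excess than in WT 3 to 6. It was 1.29 against 0.22 in YBL005W-A, 0.71 against -0.34 in YGR109W-A, 0.51 against -0.19 in YAR010C and 2.29 against 1.87 in YHL009W-A. Among Gag-Pol frames it was smaller in YBL100W-B and YDR261W-B and larger in YDR316W-B.

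For YDR261C-D the excess was 0.63 in spt3Δ, 0.22 in ubp8Δ, -0.23 in ubp8Δ gcn5Δ, -0.23 in spt3Δ gcn5Δ, -0.27 in spt20Δ, -0.50 in spt8Δ and -0.61 in gcn5Δ, against 0.0048 in WT 3 to 6 and -2.78 in WT 7 and 8. The spread of single arrays was of the same size as these differences between strains, as the 2 spt3Δ nascent arrays alone differed by more than 1.

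**Figure D4:**
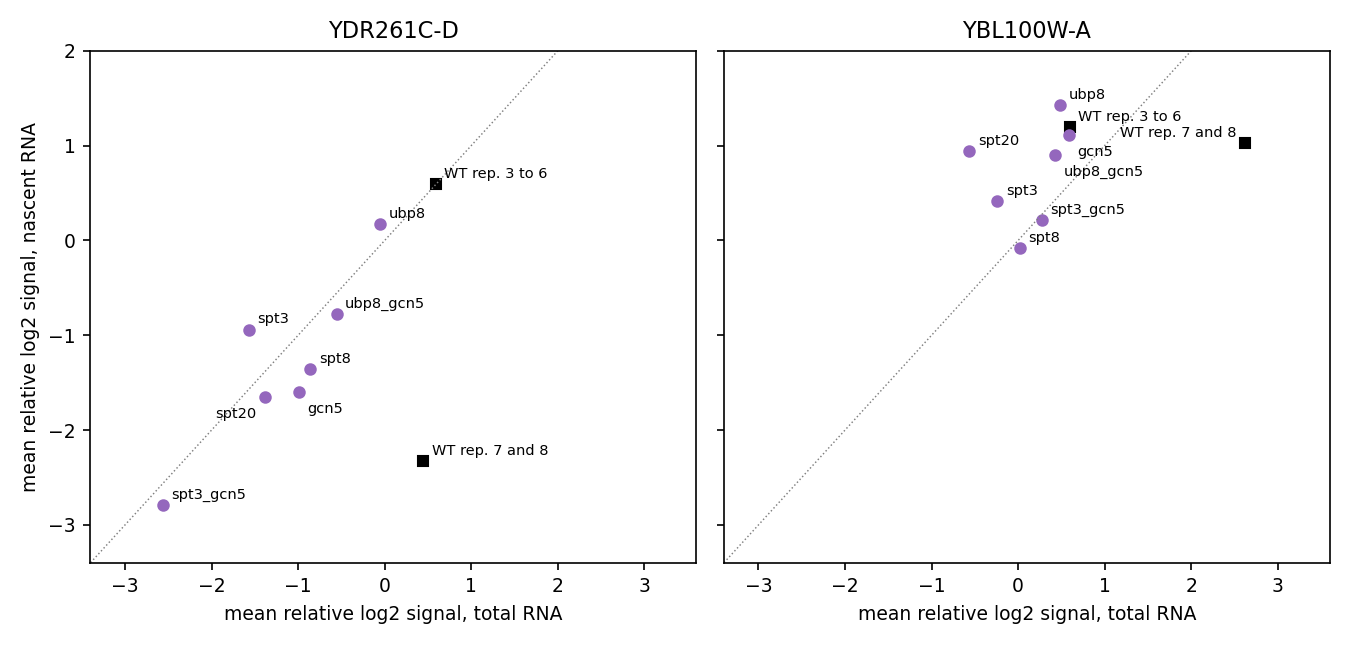
Mean relative log2 signal in nascent RNA against that in total RNA for YDR261C-D (left) and YBL100W-A (right); points are strains, squares are WT of each array set, and the dotted line marks equal values. For YDR261C-D the strains lie near the line from spt3Δ gcn5Δ at the bottom to WT 3 to 6 at the top, with WT 7 and 8 far off it, and for YBL100W-A spt20Δ lies above the line and WT 7 and 8 below it.

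The 2 frames were read against the 11 other Ty frames on the arrays. All 13 were tested in nascent RNA in a model over all 5449 genes, since 8 of them, YDR261C-D included, were among the lowest 25% of genes by signal. With the array set as a block, 13 of 13 fell in spt8Δ and 10 of 13 in spt3Δ, where 29.2% and 21.5% of all genes fell. In spt20Δ, gcn5Δ and ubp8Δ gcn5Δ 7 each fell, beside 21.6%, 18.5% and 33.6% of all genes, and 1 rose in spt20Δ and 1 in ubp8Δ gcn5Δ, where 22.9% and 25.1% of all genes rose. In ubp8Δ 2 fell and in spt3Δ gcn5Δ 3 fell, where 4.55% and 14.0% of all genes fell. These counts rest on centring by the array median, which in log2 signal was 6.70 in both spt8Δ arrays. In WT 3 to 6 it was 6.12 to 6.365. Scaled to the S. pombe spike-in, 4 of 4086 genes were called lower in spt8Δ over all WT arrays, against 384 when centred. The 13 frames were not counted on the spike-in scale.

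The median change of the 13 was -1.27 in spt8Δ, against -0.15 over all genes, and -0.83 in spt3Δ, against -0.11. It was -0.67 in spt20Δ, -0.55 in gcn5Δ, -0.85 in ubp8Δ gcn5Δ, -0.12 in ubp8Δ and -0.42 in spt3Δ gcn5Δ. Over all 6 WT arrays the counts that fell were 6 in spt8Δ (9.14% of all genes), 3 in spt3Δ (8.09%), 2 in spt20Δ (21%), 3 in gcn5Δ (10.6%), 3 in ubp8Δ gcn5Δ (23.1%), 0 in ubp8Δ (5.82%) and 12 in spt3Δ gcn5Δ (21.8%). In ubp8Δ 0 rose and 0 fell, and 0 of the 13 had an unadjusted p under 0.05 in limma over all WT arrays. The frame that rose in spt20Δ and the one that rose in ubp8Δ gcn5Δ stood beside 24.5% and 21.4% of all genes. All but YGR109W-B have probe sets with the suffix for more than 1 transcript, so the frames cannot be taken as independent of each other.

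**Figure D5:**
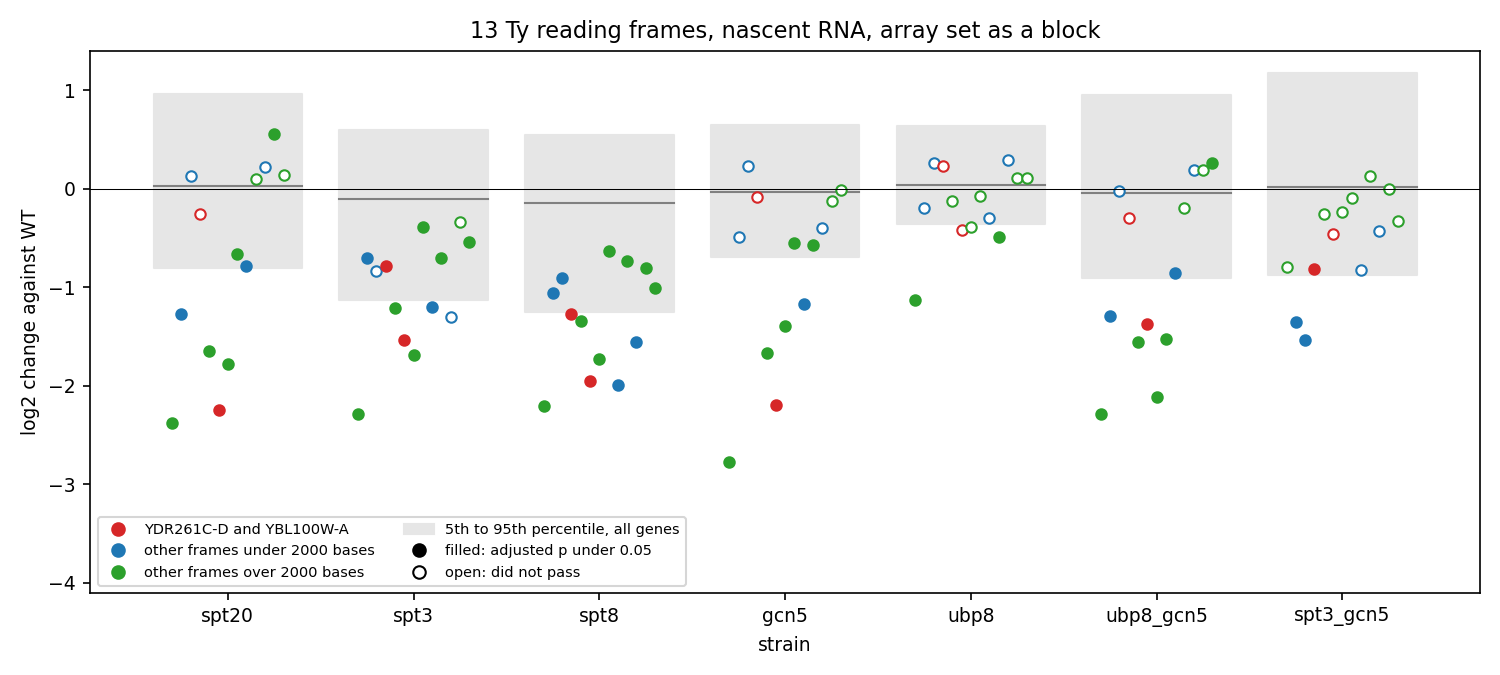
Log2 change against WT in nascent RNA for the 13 Ty reading frames in each strain, with the array set as a block; filled points passed a limma adjusted p under 0.05, and grey boxes span the 5th to 95th percentile of all 5449 genes around their median. In spt8Δ all 13 points are filled and lie between -2.20 and -0.63, on the scale centred by the array median.

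Averaged over spt3Δ and spt8Δ against all WT arrays, the 3 lowest of the other frames were YGR109W-A, YAR010C and YBL005W-A. YGR109W-A, the Gag frame of a Ty3 element, read -2.94 and -2.96 in spt8Δ and -1.81 and -2.50 in spt3Δ, against -1.70 to -0.46 in WT. It fell by 1.82 ± 0.32 in spt8Δ (limma, adjusted p = 0.00167) and by 1.03 ± 0.32 in spt3Δ (adjusted p = 0.0375). YAR010C, a Ty1 Gag frame, read 1.52 and 1.69 in spt8Δ and 2.08 and 1.84 in spt3Δ, against 2.12 to 3.39 in WT. It fell by 1.22 ± 0.25 in spt8Δ (adjusted p = 0.00368) and by 0.86 ± 0.25 in spt3Δ (adjusted p = 0.0239), and it also fell in 3 strains where YBL100W-A did not pass, by 1.43 in spt20Δ (adjusted p = 4.28e-06), 1.46 in ubp8Δ gcn5Δ (adjusted p = 3.7e-06) and 0.65 in gcn5Δ (adjusted p = 0.02). The gcn5Δ change was -0.49 with the block and no longer passed (adjusted p = 0.0597), and the ubp8Δ gcn5Δ value still held the constants. YBL005W-A, another Ty1 Gag frame, changed by -0.98 ± 0.33 in spt8Δ, just past the threshold (adjusted p = 0.05), and by -0.90 in spt3Δ (adjusted p = 0.0704).

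The 3 least changed frames were YGR109W-B, YDR316W-B and YHL009W-B. YGR109W-B, the Ty3 Gag-Pol frame, averaged -0.13 over the 2 strains and passed in both only with the block (-0.74 in spt8Δ and -0.70 in spt3Δ). YDR316W-B, a Gag-Pol frame on chromosome IV, fell by 0.50 ± 0.14 in spt8Δ (limma, adjusted p = 0.021), changed by -0.26 in spt3Δ (adjusted p = 0.239, and 0.0131 at -0.39 with the block), and fell by 1.39 ± 0.11 in ubp8Δ gcn5Δ (adjusted p = 1.25e-09), on values that still held the constants. YHL009W-B, of the Ty4 family, rose by 0.74 ± 0.19 in spt20Δ (adjusted p = 0.00356). In spt8Δ it changed by -0.63 over all WT arrays (adjusted p = 0.0932) and by -0.81 with the block, which passed (adjusted p = 0.00965).

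Other frames were split between the WT arrays too. In nascent RNA YAR009C, YDR261W-B and YBL100W-B differed by -4.38, -3.26 and -2.29 in WT 7 and 8 from WT 3 to 6, like YDR261C-D. YDR261W-B and YBL100W-B are Gag-Pol frames, while YAR009C does not overlap the Gag frame YAR010C beside it. The Gag-Pol frame YDR316W-B differed by -0.39. The Gag frames YAR010C, YBL005W-A and YGR109W-A differed by 0.49, 0.21 and -0.52, and that of Ty4, YHL009W-A, by -1.90. In total RNA YAR010C and YBL005W-A were higher in WT 7 and 8 by 1.87 and 2.53, like YBL100W-A, and YAR009C, YDR261W-B and YBL100W-B differed by -0.63 to -0.13. What part the array set had in this was not tested.

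Factors known to act on Ty1 promoters were looked at in the same nascent arrays, 15 of 22 passing the filter on low signal. Tec1 and Ste12 bind together within Ty1. TEC1 fell in spt20Δ by 1.35 ± 0.15 (limma, adjusted p = 2.4e-07), in gcn5Δ by 1.24 ± 0.15 (adjusted p = 3.74e-06), in ubp8Δ gcn5Δ by 1.23 ± 0.15 (adjusted p = 1.24e-06), in ubp8Δ by 0.84 ± 0.15 (adjusted p = 0.0012) and in spt3Δ gcn5Δ by 1.35 ± 0.20 (adjusted p = 7.9e-06). In spt3Δ and spt8Δ TEC1 changed by -0.54 (adjusted p = 0.0675) and -0.42 (adjusted p = 0.165). Whether the level of TEC1 bears on either frame was not tested. STE12 fell in spt20Δ by 1.23 ± 0.22 (adjusted p = 0.000101) and in ubp8Δ gcn5Δ by 0.86 ± 0.22 (adjusted p = 0.00309), by 0.79 and 0.42 with the block, and did not pass in spt3Δ or spt8Δ. In spt3Δ gcn5Δ STE12 was -0.25 over all WT arrays (adjusted p = 0.47) and -1.14 with the block (adjusted p = 2.02e-07). The ubp8Δ gcn5Δ values of TEC1 and STE12 still held the 2 constants. The STE12 fall of 0.42 there with the block was no larger than the log2 ratio of the constants, 0.43.

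Over the whole list of 15, 8 fell and 1 rose in spt20Δ, 9 fell and 2 rose in ubp8Δ gcn5Δ, 7 fell and 2 rose in spt3Δ gcn5Δ, and 4 fell and 1 rose in gcn5Δ. In spt3Δ 3 fell and 1 rose, in ubp8Δ 3 fell, and in spt8Δ 0 fell and 1 rose. With the block 2 fell and 2 rose in spt8Δ, 3 and 2 in spt3Δ, 4 and 1 in ubp8Δ, 9 and 2 in spt20Δ, 5 and 2 in gcn5Δ, 8 and 3 in ubp8Δ gcn5Δ and 7 and 2 in spt3Δ gcn5Δ. Over all WT arrays the shares of tested genes called lower and higher were 25% and 20.5% in spt20Δ, 29.9% and 12.6% in ubp8Δ gcn5Δ, 24.6% and 20.9% in spt3Δ gcn5Δ, and 12% and 8.32% in gcn5Δ. They were 8.71% and 4.75% in spt3Δ, 7.1% and 6.63% in ubp8Δ, and 9.4% and 3.38% in spt8Δ. With the block they were 26.3% and 19.6% in spt20Δ, 44.9% and 17.4% in ubp8Δ gcn5Δ, 15.5% and 20.1% in spt3Δ gcn5Δ, 22.4% and 14.5% in gcn5Δ, 23.2% and 13% in spt3Δ, 5.68% and 6.8% in ubp8Δ, and 31.1% and 12.1% in spt8Δ. The list's median change was -0.71 in spt20Δ and -0.18 in spt8Δ, against 0.02 and -0.09 over all tested genes, and with the block it was -0.58 and 0.03.

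In spt3Δ and spt8Δ the members of this list that passed with both arrays outside the WT range were DIG1, DIG2 and TYE7. Dig1 and Dig2 hold Ste12 back, and the 2 moved apart in spt3Δ. DIG2 rose by 0.72 ± 0.21 in spt3Δ (limma, adjusted p = 0.0256) and by 0.67 ± 0.21 in spt8Δ (adjusted p = 0.0392). DIG1 fell in spt3Δ by 0.59 ± 0.15 (adjusted p = 0.0107). TYE7, named for a gene that affects Ty-driven expression and a factor of glycolytic genes, fell in spt3Δ by 0.67 ± 0.14 (adjusted p = 0.0034).

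Host factors of Ty RNA and transposition were a list of 16, of which 12 passed the filter. Of these 4 fell and 2 rose in spt20Δ, where 25% and 20.5% of tested genes did, and 5 and 2 in ubp8Δ gcn5Δ, where 29.9% and 12.6% did. The counts were 3 and 2 in spt3Δ gcn5Δ, 3 and 0 in ubp8Δ, and 2 and 0 in gcn5Δ, beside 24.6% and 20.9%, 7.1% and 6.63%, and 12% and 8.32% of tested genes. With the block 0 fell and 2 rose in spt3Δ gcn5Δ, beside 15.5% and 20.1% of tested genes. Under that model 4 fell and 1 rose in spt8Δ (31.1% and 12.1%), and 5 and 2 in spt20Δ (26.3% and 19.6%). In ubp8Δ gcn5Δ they were 6 and 2 with the block (44.9% and 17.4%). Likewise 2 fell and 0 rose in ubp8Δ (5.68% and 6.8%), in gcn5Δ (22.4% and 14.5%) and in spt3Δ (23.2% and 13%). Over all WT arrays 2 fell and 1 rose in spt8Δ, where 9.4% and 3.38% of tested genes did. XRN1, the cytoplasmic 5′ to 3′ exonuclease, fell by 0.67 ± 0.18 (limma, adjusted p = 0.0217), and NAM7, a nonsense-mediated decay helicase, by 0.72 ± 0.18 (adjusted p = 0.0109). NMD2, of the same decay pathway, rose by 0.46 ± 0.12 (adjusted p = 0.0154). In spt3Δ, where 8.71% of tested genes fell and 4.75% rose, 2 fell and 0 rose, RTT10 by 0.50 ± 0.16 with both arrays outside the WT range (adjusted p = 0.0342).

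Across the 17 group means of both fractions, the mean of YDR261C-D and YBL100W-A was most alike in pattern to YCL002C (Pearson's r = 0.80), TIR1 (0.78), PNS1 (0.77), TFC3 (0.76) and MNN10 (0.75), among genes that are not Ty frames. Without WT 7 and 8 and spt3Δ gcn5Δ, over 15 means, these were 0.80, 0.69, 0.60, 0.46 and 0.68. The other Ty frames ran from 0.23 in YHL009W-B and 0.28 in YDR316W-B to 0.84 in YBL100W-B and 0.85 in YAR009C. YDR261C-D and YBL100W-A correlated with each other at 0.47 over the 17 means. The means share arrays and their medians, and these values are descriptions.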

How the data were processed

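Nascent (4-thiouracil labelled) and total RNA of S. cerevisiae deletion strains and WT was hybridised to Affymetrix arrays. The deposited values are probe set intensities on a linear scale, made by the authors; per the submitters' processing notes the software was Expression Console 1.4.1 (Affymetrix). Normalization, background step and build are not given in these sources. WT total replicates 1 and 2, WT nascent replicates 1 and 2, 4 spt7Δ nascent and 2 spt20Δ total arrays were left out (10 of 68). Probe sets were named from the platform's annotation: 5498 S. cerevisiae probe sets with 1 gene stood for 5449 genes. For the 47 genes with several probe sets, the 1 with the highest mean log2 signal over the used arrays was kept. In that annotation 3683 probe sets had no gene name and 1 had several. Each array was centred on its S. cerevisiae median. limma 3.58.1 in R 4.3.3 (lmFit, eBayes, two-sided, Benjamini-Hochberg over all genes tested, threshold 0.05) was fitted over all used arrays of a fraction after leaving out the lowest 25% of genes by mean signal (4086 left). YDR261C-D did not pass that filter in nascent RNA and was tested in a fit of all 5449 genes, added after the data were seen. Precision is limited by the number of arrays.

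Named beside both frames were the 3 lowest and 3 highest other Ty frames by mean nascent change over spt3Δ and spt8Δ, TEC1 and STE12, list members that passed in spt3Δ or spt8Δ with all arrays outside the WT range (at most 5 a list), and the 5 genes most alike in pattern. Members and lists were chosen with earlier results of these data known. The fit was tested on simulated data: of genes changed by 1 on the log2 scale, 77.6% were recovered for spt8Δ and 83.6% for spt20Δ among 4086 genes. The simulated arrays held no difference between array sets. YDR261C-D was not among the 4086 genes, so these shares do not apply to it. Alternatives were spike-in scaling, quantile normalization, an offset of 16, array set and replicate blocks, subsets of arrays and, added after the data were seen, the 2 constants multiplied back together with the array set block. Other steps used Python 3.11.15 with pandas 2.3.3.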

Additional observations from a re-analysis of the deposited data

Results flagged for a closer look

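The ubp8Δ strain moved in opposite directions in the 2 fractions for both frames when set against all 6 WT arrays, and the difference between fractions was not tested. For YBL100W-A the nascent change was 0.28 and the total change -0.79, a difference of 1.07. For YDR261C-D they were 0.55 and -0.59, a difference of 1.14. Against WT 3 to 6 alone the nascent change of YDR261C-D was -0.42 and the total change -0.64, and those of YBL100W-A were 0.23 and -0.11. In the 10 groups of 4 or 6 arrays, tested once for each frame, no single array stood apart from the rest by Dixon's test, which chance passes in about 1 of 20 groups.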

How the results depend on the processing

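Changes against WT in nascent RNA are given as log2 values over all 6 WT arrays unless said otherwise. With the array set as a block, and likewise with only WT arrays of the same set or with the constants also multiplied back, YBL100W-A in spt3Δ passed at -0.78, and YDR261C-D moved to -2.25 in spt20Δ, -1.54 in spt3Δ, -1.95 in spt8Δ, -2.19 in gcn5Δ, -0.42 in ubp8Δ, -1.38 in ubp8Δ gcn5Δ (-1.54 with the constants multiplied back) and -0.46 in spt3Δ gcn5Δ. Scaling to the S. pombe spike-in moved the median change of the 4086 tested genes by -1.06 in spt20Δ, -1.12 in spt3Δ, 0.16 in spt8Δ, -0.47 in gcn5Δ, -0.31 in ubp8Δ, -1.58 in ubp8Δ gcn5Δ and -2.66 in spt3Δ gcn5Δ. Under it YBL100W-A was -1.27 in spt20Δ, -1.85 in spt3Δ, -1.06 in spt8Δ (no longer passing), -0.029 in ubp8Δ and -1.82 in ubp8Δ gcn5Δ, and YDR261C-D -2.33 in spt20Δ, -1.69 in spt3Δ, -1.69 in gcn5Δ and -1.98 in ubp8Δ gcn5Δ. Quantile normalization gave YBL100W-A 0.015 in gcn5Δ and 0.13 in ubp8Δ gcn5Δ and YDR261C-D -1.61 in spt20Δ, the offset gave YBL100W-A -0.65 in spt3Δ, and multiplying the constants back gave YBL100W-A 0.022 in ubp8Δ gcn5Δ. Fitted with the strain and WT alone, YBL100W-A at -1.22 in spt8Δ and YDR261C-D at -2.41 in spt3Δ gcn5Δ no longer passed. Same-numbered arrays of a strain and WT did not deviate together (r from -0.55 to 0.43), so the numbers were not taken as a pairing; with the number as a replicate block, YBL100W-A in spt8Δ was -1.18, and YDR261C-D -2.02 in spt20Δ, -1.55 in spt8Δ, -1.96 in gcn5Δ, -0.19 in ubp8Δ and -1.15 in ubp8Δ gcn5Δ.

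Leaving out 1 array at a time gave YBL100W-A from -0.29 to -0.08 in spt20Δ, -1.05 to -0.41 in spt3Δ, -1.27 to -1.13 in spt8Δ, -0.15 to 0.22 in gcn5Δ, 0.23 to 0.38 in ubp8Δ, -0.34 to -0.04 in ubp8Δ gcn5Δ and -1.05 to -0.80 in spt3Δ gcn5Δ. In gcn5Δ the sign turned without WT 3 (0.06) or gcn5Δ replicate 2 (0.22). YDR261C-D ran from -1.72 to -0.89 in spt20Δ, -1.24 to 0.12 in spt3Δ, -1.42 to -0.60 in spt8Δ, -1.67 to -0.84 in gcn5Δ, 0.10 to 0.93 in ubp8Δ, -0.85 to -0.02 in ubp8Δ gcn5Δ and -2.86 to -2.04 in spt3Δ gcn5Δ. Where a strain kept 1 array, it was taken to vary like the other groups.

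Among pairs of strains, spike-in scaling turned round YBL100W-A in nascent RNA for spt20Δ against spt8Δ (-0.21), spt3Δ against spt8Δ (-0.79) and ubp8Δ gcn5Δ against spt8Δ (-0.76), and in total RNA for spt3Δ gcn5Δ against spt3Δ (-1.03, and -1.50 with the array set block). It turned round nascent YDR261C-D for spt3Δ against spt8Δ (-0.87) and for ubp8Δ gcn5Δ against spt3Δ (-0.29), spt8Δ (-1.17) and gcn5Δ (-0.29), and total YDR261C-D for spt20Δ against spt3Δ (-0.23), ubp8Δ gcn5Δ against gcn5Δ (-0.036) and spt7Δ against gcn5Δ (-0.0073). The array set block turned nascent YDR261C-D to 1.07 for spt3Δ gcn5Δ against spt3Δ and 1.73 against gcn5Δ. Causes were not tested. Genes called among 4086 against WT numbered 1859 in spt20Δ, 550 in spt3Δ, 522 in spt8Δ, 489 lower with 340 higher in gcn5Δ, 561 in ubp8Δ, 1735 in ubp8Δ gcn5Δ and 1861 in spt3Δ gcn5Δ; with the block they numbered 1477 in spt3Δ, 1766 in spt8Δ and 1508 in gcn5Δ, and with spike-in scaling 3435 in spt20Δ, 3685 in spt3Δ, 5 in spt8Δ, 16 in ubp8Δ, 4014 in ubp8Δ gcn5Δ and 4060 in spt3Δ gcn5Δ. With the strain and WT alone, which leaves fewer arrays, they numbered 976, 27, 1, 212, 36, 896 and 561 in the order of the first list, and with consecutive replicates averaged 1205 in spt20Δ, 370 in gcn5Δ, 56 in ubp8Δ and 1142 in ubp8Δ gcn5Δ. The limits of these results are 2 arrays in 3 nascent strains, 1 small array set that holds 1 strain beside WT, and a signal of YDR261C-D in the lowest 25% of genes.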
